A study of Mus musculus with 10 samples.

Results

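T cell receptor β chains with 6 or more inserted bases in the CDR3, the junction of the V, D and J segments that contacts antigen, were described across mouse skin and lymph node. A clonotype (1 line of the deposited tables, with its V and J segments and CDR3 bases) was eligible if a D segment was called and its CDR3 ran from cysteine to phenylalanine. Inserted bases were those that the deposited positions placed between V and D or between D and J. Members were selected on this count, so the count itself is a description. They numbered 1579 of 20005 eligible clonotypes (7.89%), among 29481 clonotypes in 9 β chain libraries. The lymph node library held 1452 of them and the 8 skin libraries 127.

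The T cells came from ear skin or peripheral lymph nodes of wild-type (WT) mice (C57BL/6-N/Crl) and of Tcrd-/- mice (B6.129P2-Tcrdtm1Mom/J), whose germline deletion of the δ chain gene removes γδ T cells from the whole animal. Each library was RNA from 1 pool of cells from 5 to 18 animals, with no further treatment given in the labels. Cells sorted as CD45+CD3+TCRβ+ gave the WT dermal library, dermal Tcrd-/- A and B, and the Tcrd-/- lymph node library. Epidermal Tcrd-/- A, B and C came from CD3hi TCRβhi cells, and CD103+ and CD103hi dermal Tcrd-/- cells gave 1 library each. CD103 is an integrin chain of T cells in epithelia. Every V, D and J call in these 9 libraries belonged to the β locus. The tenth sample, γ chains of WT epidermis, listed 0 β chains and was not used.

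During β chain rearrangement in the thymus, the RAG recombinase cuts next to the V, D and J segments and their ends are trimmed. Opened hairpins leave short palindromic bases, and terminal deoxynucleotidyl transferase adds bases without a template, with a preference for guanine. This enzyme is scarce in the fetal thymus, so β chains made early in life carry few added bases, and chains made later carry more. The inserted bases lie in the centre of the CDR3 loop and are the part of the chain that no segment encodes.

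Members are given as CDR3 nucleotides, 5′ to 3′, with inserted bases in capitals, because the place and the letters of these bases define the group. The germline D segments stand first, for comparison with the lower-case stretch between the capitals. In the GRCm38 annotation (GENCODE M21) both lie on the plus strand, TRBD1 at chr6:41533201-41533212 and TRBD2 at chr6:41542163-41542176.
TRBD1, germline: gggacagggggc
TRBD2, germline: gggactgggggggc
Dermal Tcrd-/- B, TRBV13-3 and TRBJ2-7, 4441 reads: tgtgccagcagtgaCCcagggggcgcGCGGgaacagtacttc
Dermal Tcrd-/- A, TRBV13-3 and TRBJ2-2, 2542 reads: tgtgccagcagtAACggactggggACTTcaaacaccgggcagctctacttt
Dermal WT, TRBV29 and TRBJ1-2, 2436 reads: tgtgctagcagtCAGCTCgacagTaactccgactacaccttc
CD103+ dermal Tcrd-/-, TRBV1 and TRBJ2-7, 363 reads: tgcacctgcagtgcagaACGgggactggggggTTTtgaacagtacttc
CD103hi dermal Tcrd-/-, TRBV13-3 and TRBJ2-4, 58 reads: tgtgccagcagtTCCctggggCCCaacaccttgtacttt
Lymph node Tcrd-/-, TRBV5 and TRBJ2-4, 11 reads: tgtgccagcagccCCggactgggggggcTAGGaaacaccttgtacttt
Epidermal Tcrd-/- A, TRBV4 and TRBJ1-4, 1 read: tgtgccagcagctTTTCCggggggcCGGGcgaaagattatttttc

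The first 6 of these 7 were the largest members of their libraries. The epidermal A chain was not. The largest members of epidermal A (10 reads) and epidermal B (1 read) ended in bases unlike the reference J segments, as described next, and are not printed. The epidermal A chain above was chosen after its values were seen, as a member whose end matched a reference J. The dermal B chain had exactly 6 inserted bases, 2 on the V-D side and 4 on the D-J side, and so lay at the threshold. Just below it, the largest skin clonotype with exactly 5 was a WT dermal TRBV20 and TRBJ2-2 chain of 3751 reads (1.98% of its library), 1 base on the V-D side and 4 on the D-J side, shown for the contrast.
Dermal WT, 5 inserted bases, not a member: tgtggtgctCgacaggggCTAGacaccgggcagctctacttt

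Many skin members did not match their called J segment, and this touches most skin results. An off-reference J end was defined, after the data were seen, as a last 15 bases that differed at 2 or more positions from every TRBJ segment of the reference and occurred in at most 1 eligible lymph node clonotype. Of 52 members in epidermal A and dermal A, 41 had such an end (23 of 26 and 18 of 26). Of 75 members in the other 6 skin libraries, 12 had one. Among the other eligible clonotypes of epidermal A and dermal A the shares were 3.98 and 6.12%. The 53 ends were of 33 kinds, and 7 kinds recurred in 27 members, the most frequent in 9 members called with 6 V segments. They also carried more inserted bases, 11.9 on average against 8.05 in the other 74 skin members. Bases before a shorter J call count as inserted, so both contrasts can follow in part from the rule that selects members. Called J stretches averaged 13.5 bases in all epidermal A members and 19.3 in its 3 without such ends. In dermal A they averaged 15.7, and 20.9 in the 8 without such ends. Heavily trimmed mouse J segments can meet the definition too, and where these chains came from was not tested. Shares, clone sizes, lengths, GC, sides and segment clusters are therefore also given without them. The definition cannot be applied to the lymph node library itself, where 223 of 1452 members (15.4%) differed from every reference J at 2 or more positions.

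By clonotypes, members were a minority of every library. They made up 7.95% of eligible clonotypes in lymph node (Wilson 95% interval 7.57 to 8.35%) and 7.32% in WT dermis (5.33 to 9.96%). Their share was 7.48% in the CD103+ library (4.99 to 11.1%) and 1.95% in the CD103hi library (0.834 to 4.47%). The 2 single-library intervals of the CD103 sorts did not overlap. These intervals cover counting error only. In dermal A and B the shares were 15.03% (10.5 to 21.1%) and 3.64% (1.003 to 12.3%), and in epidermal A, B and C they were 12.9% (8.94 to 18.2%), 4.04% (2.14 to 7.49%) and 1.96% (0.347 to 10.3%). Epidermal A and dermal A stood above all other libraries. Without off-reference ends epidermal A had the lowest value of the 9, 1.74% (0.595 to 5.00%), and dermal A lay among the others at 5.48% (2.80 to 10.4%).

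Epidermal Tcrd-/- libraries averaged 6.29% ± 5.79 (SD, n = 3) and dermal ones 9.33% ± 8.06 (SD, n = 2), and the groups overlapped (exact permutation p = 0.6, adjusted over 7 measures 1). Without off-reference ends the values were 1.74, 2.84 and 2.04% in epidermis and 5.48 and 3.64% in dermis, and the groups did not overlap. This difference was -2.35 percentage points (exact permutation p = 0.2, the smallest this design can give, and 0.467 adjusted). The remaining WT dermal, CD103+ and CD103hi shares were then 6.87, 6.14 (3.87 to 9.61) and 2.05% (0.878 to 4.71), and the intervals of the CD103 sorts overlapped. The clonotype share depends on how inserted bases are counted. Recounted from reference segments, with palindromic bases counted as inserted, it was 30.2, 39.0 and 23.5% in epidermal A, B and C, 40.5 and 29.1% in dermal A and B, 39.5% in the CD103+ and 29.2% in the CD103hi sort. It was then 26.7% in lymph node (Wilson 95% interval 26.1 to 27.4%) and 36.2% in WT dermis (32.1 to 40.5%). These intervals did not overlap, whereas those of the deposited positions did. Without off-reference ends the recount gave 18.6, 36.0 and 20.4% in epidermal A, B and C, and 30.8 and 29.1% in dermal A and B. It gave 37.2% in the CD103+ sort, 25.8% in the CD103hi sort and 33.7% in WT dermis. Epidermal A and the CD103hi sort thus moved from above the lymph node share to below it.

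**Figure D1:**
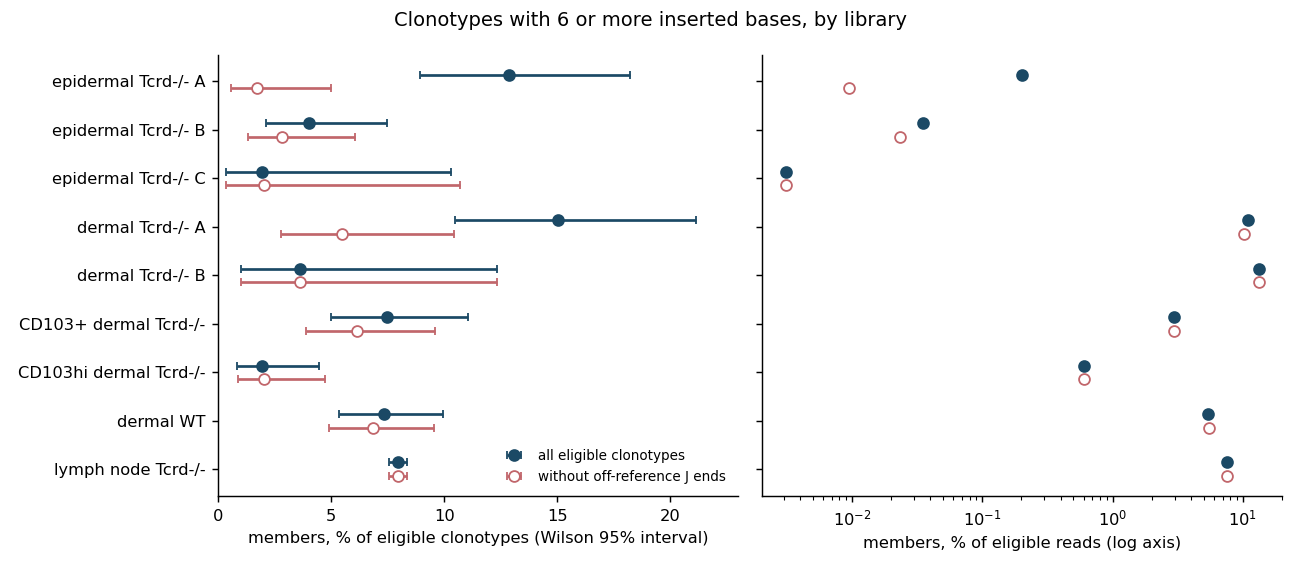
Share of members by library, as percent of eligible clonotypes with Wilson 95% intervals (left) and as percent of eligible reads on a log axis (right), for all eligible clonotypes (filled) and without off-reference J ends (open). The 3 epidermal libraries lie at or below 0.203% of reads, under all 6 others, while the clonotype shares overlap.

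By reads, members took under 1% of the epidermal and over 10% of the bulk dermal Tcrd-/- libraries. They took 0.203, 0.0352 and 0.00311% of eligible reads in epidermal A, B and C, which were 69, 9 and 1 reads. In dermal A and B they took 11.0 and 13.2% (4792 and 4442 reads). The groups did not overlap, at 0.0806% ± 0.108 (SD, n = 3) and 12.1% ± 1.56 (SD, n = 2), a difference of -12.1 percentage points (exact permutation p = 0.2, adjusted 0.7). Without off-reference ends the epidermal shares were 0.00951, 0.0235 and 0.00311% and the dermal ones 10.2 and 13.2%. WT dermis lay at 5.39%, the CD103+ sort at 2.94%, the CD103hi sort at 0.603% and lymph node at 7.51%. Fewer cells with such chains and less RNA per cell cannot be told apart in these bulk libraries.

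The dermal read share rested on few clonotypes. In dermal B, 1 clonotype held 4441 of the 4442 member reads and was the largest clonotype of the library, at 10.7% of its reads. In dermal A the 3 largest members held 89.2% of member reads, and the largest ranked second in its library at 4.80%. With the largest member of each library left out, the difference between epidermis and dermis shrank to -2.68 percentage points and the groups overlapped. With 8 or more inserted bases as the threshold it was -0.456, since the large dermal clones had 6 or 7. With 5 or more it was -14.2 and the groups did not overlap, but epidermal C rose to 10.4% of eligible reads, from 4 members. Epidermal A and B were then at 0.236 and 0.0703%, and dermal A and B at 14.6 and 20.9%. With the CD103+ and CD103hi libraries counted as dermal the difference was -6.87 (exact permutation p = 0.0571, adjusted 0.2). This p is the smallest that 3 against 4 libraries can give. After the recount from reference segments the shares were 1.01, 0.707 and 11.1% in epidermis and 28.0 and 21.5% in dermis.

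Members of the epidermal libraries were small clones, and those of the dermal Tcrd-/- libraries included large ones. In lymph node, members had 1.85 reads on average against 1.97 for other eligible clonotypes, the median was 1 in both, and the largest member had 11 reads. There, 54.5% of members and 51.5% of the others had a single read. In WT dermis the members averaged 208 reads against 288, their median was 10.5 against 109, and 19 of 36 had at least 10 reads. CD103+ members averaged 40.8 reads against 109, with 5 of 22 at 10 reads or more, and CD103hi members 17.8 against 58.2, with 2 of 5. Members were thus smaller on average than the other clonotypes in each of these 4 libraries, by little in lymph node.

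In dermal A the members averaged 184 reads against 263, with 7 of 26 at 10 reads or more. In dermal B the 2 members had 4441 reads and 1 read. In the 3 epidermal libraries, 1 of 36 members reached 10 reads, and all 10 without an off-reference end had a single read. Other epidermal clonotypes averaged 192, 120 and 643 reads in A, B and C. Their medians were only 14, 5 and 2, against 2, 1 and 1 for members, and 25.6, 43.0 and 48.0% of them had a single read. The log2 ratio of mean reads, member to other, was -6.18, -6.90 and -9.33 in epidermis and -0.512 and 2.02 in dermis. The groups did not overlap, and the difference was -8.22 (exact permutation p = 0.2, adjusted 0.7). Without the largest member of each library it was -1.30, with no value left for epidermal C and overlapping groups. With 5 or more inserted bases as the threshold it was -4.21 (exact permutation p = 0.4) and the groups overlapped, since epidermal C was at 0.454 and dermal A at -0.466. Without off-reference ends it was -9.46, with no overlap.

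Over all 9 libraries the mean log2 ratio was -2.73 ± 3.79 (SD), negative in 8 of 9, with dermal B the exception (exact sign-flip permutation p = 0.0625, adjusted over 6 measures 0.0938). Without dermal B, the only library of opposite sign, it was -3.33 (exact permutation, adjusted p = 0.0469). The other 8 libraries share a sign, so the unadjusted p is then the smallest that 8 can give, and no call is drawn from it. With inserted bases recounted from reference segments the mean log2 ratio was -2.52, negative in all 9 (exact permutation, adjusted p = 0.0234). It was -1.91 without epidermal C (exact permutation, adjusted p = 0.188), -2.69 without off-reference ends (0.183) and -0.930 among clonotypes with at least 2 reads (0.544). Read counts are skewed, with a mean of 643 and a median of 2 reads among the other clonotypes of epidermal C. A mean over few members then leans to the lower side, so the signs and p-values of this ratio are not read as calls.

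**Figure D2:**
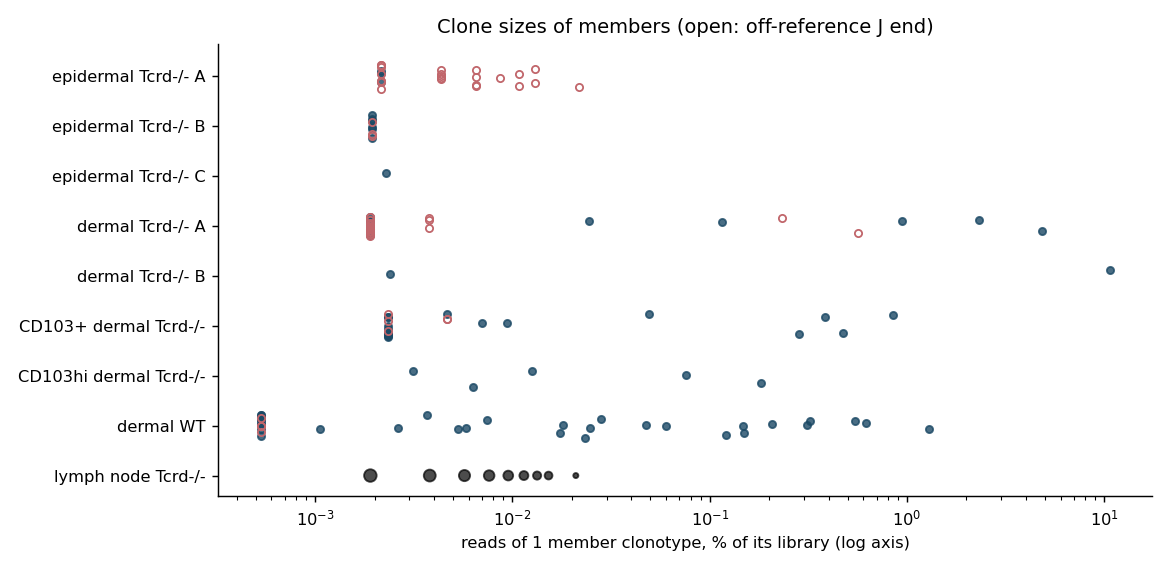
Reads of each member clonotype as percent of its library, on a log axis, 1 row per library, with off-reference J ends as open points. Lymph node points stand for all members of 1 read count and grow with their number. Epidermal members lie at or below 0.0217% of reads, whereas dermal A and B reach 4.80 and 10.7%.

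The large dermal members drew on several V segments. After TRBV13-3 (2542 reads), dermal A had a TRBV19 and TRBJ2-1 chain of 1232 reads with 6 inserted bases and a TRBV13-2 and TRBJ2-7 chain of 499 reads with 6. WT dermis followed its TRBV29 chain with 2 TRBV13-1 and TRBJ2-7 chains, of 1177 reads with 10 inserted bases and of 1028 reads with 7. The CD103+ sort followed its TRBV1 chain with 2 TRBV5 chains of 202 and 165 reads. None of the members listed here was common to dermal A, WT dermis and the CD103+ sort, or to any pair of them.

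Sharing of members was rare and mostly joined a large clone to a single read. Of 1574 distinct members, 5 (0.318%) occurred in 2 libraries and none in more. The 3 with the most reads are printed because each pairs a clone with a single read elsewhere.
Dermal WT, 1028 reads, and epidermal Tcrd-/- C, 1 read: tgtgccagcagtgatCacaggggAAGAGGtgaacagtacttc
Dermal Tcrd-/- A, 499 reads, and lymph node Tcrd-/-, 1 read: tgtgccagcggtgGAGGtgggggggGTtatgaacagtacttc
CD103+ dermal Tcrd-/-, 165 reads, and epidermal Tcrd-/- B, 1 read: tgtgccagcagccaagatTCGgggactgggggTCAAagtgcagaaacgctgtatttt

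The first was the only member of epidermal C. In each pair both libraries had names of the same set in the labels, and the share of the single read was under 1% of that of the large clone. Without such traces and without off-reference ends, the epidermal libraries kept 3, 5 and 0 members. Carry-over between libraries was not tested.

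Most lymph node members had fewer than 10 inserted bases. There, 690 of 1452 had exactly 6, 679 had 7 to 9, 79 had 10 to 14 and 4 had 15 or more, up to 20. A further 1216 eligible clonotypes had 5. Lymph node members averaged 7.01 inserted bases and WT dermal members 7.17, with a maximum of 13. The means were 12.5 in epidermal A and 11.7 in dermal A, and 7.33 and 9.5 without off-reference ends. Of the 19 skin members with 15 or more, 16 had off-reference ends. The other 3 are 1 in dermal A and 2 in the CD103+ sort. Both CD103+ chains were single reads whose CDR3 held a further FG.G motif, the start of framework 4, before its last residue.

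The longest insert of a skin member with 10 reads or more had 26 bases, in dermal A (13 reads, TRBD1 and TRBJ2-3), and the longest of a lymph node member with 2 reads or more had 13 (3 reads, TRBV13-3, TRBD1 and TRBJ2-3). They are shown because the bases counted as inserted differ in kind.
Dermal Tcrd-/- A, 26 inserted bases: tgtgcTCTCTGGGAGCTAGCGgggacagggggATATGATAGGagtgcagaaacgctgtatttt
Lymph node Tcrd-/-, 13 inserted bases: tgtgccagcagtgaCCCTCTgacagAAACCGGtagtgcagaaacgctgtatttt

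The first 17 bases of the dermal A chain equalled the CDR3 start of Trav15-1-dv6-1, which has near-identical copies and is a V segment of the α and δ chain locus on chromosome 14 (53559632 to 53560247, GRCm38), and its longest match to any TRBV was 6 bases. Most of its V-D side therefore matched a segment outside the β locus. Single-read lymph node members matched Trav13-3 and Trav14-1 over 13 bases in the same way.

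**Figure D3:**
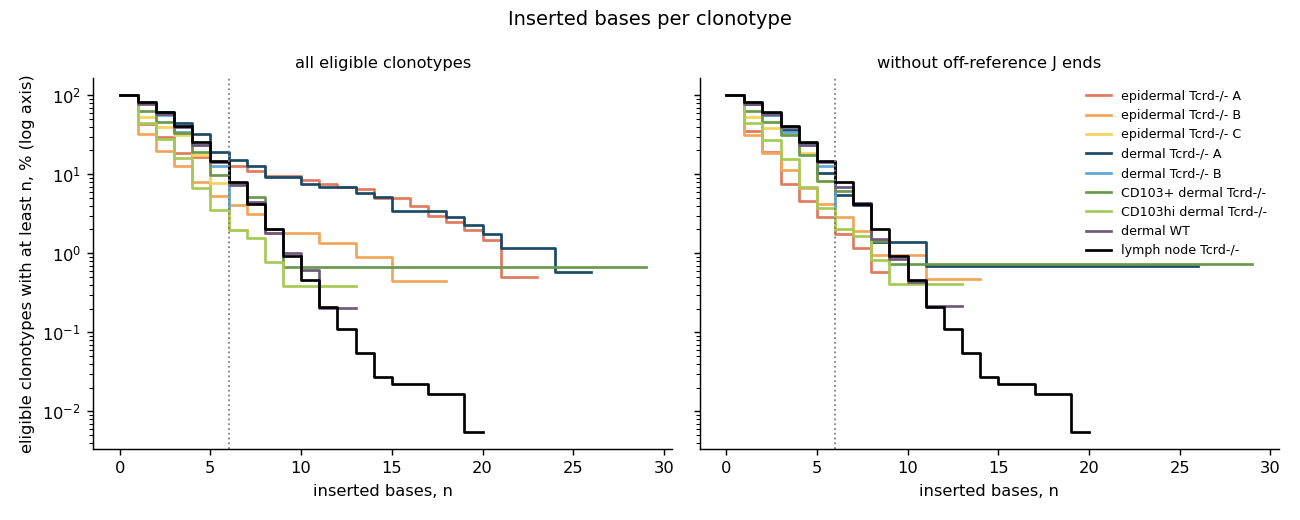
Percent of eligible clonotypes with at least n inserted bases against n, on a log axis, for each library, with all eligible clonotypes (left) and without off-reference J ends (right). The dotted line marks the threshold of 6. The long tails of epidermal A and dermal A to 23 and 26 bases on the left are reduced on the right, where the largest values are 9 and 26.

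Inserted bases were spread over both joins. In lymph node 1210 of 1452 members (83.3%) had inserted bases on both sides, 111 on the V-D side only and 131 on the D-J side only. The V-D side held 4802 bases and the D-J side 5383, a V-D share of 47.1%. The V-D share was 43.4% in WT dermis, 43.6% in the CD103+ sort, 36.6% in the CD103hi sort, 41.6 and 41.7% in dermal A and B, and 55.9, 54.0 and 14.3% in epidermal A, B and C. The last value comes from 7 bases of 1 clonotype. Epidermis and dermis overlapped (difference -0.262 percentage points, exact permutation p = 1). Without off-reference ends dermal A was at 57.9%, epidermal A and B at 54.5 and 46.0%, and the difference was -11.5, again with overlap. By the recount from reference segments the groups did not overlap, at 40.2% ± 5.11 (SD, n = 3) in epidermis and 49.1% ± 7.25 (SD, n = 2) for the dermal libraries (exact permutation p = 0.2, adjusted 0.35).

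Compared with eligible clonotypes that had 1 to 5 inserted bases in the same library, the V-D share of members was lower in 8 of 9 libraries. The mean difference was -8.47 percentage points ± 13.5 (SD, n = 9, exact sign-flip permutation p = 0.0430, adjusted 0.0859). In lymph node, the deepest sample of members, it was 47.1 against 49.2%. Without epidermal A, the only library of opposite sign, the mean was -10.3 (exact permutation, adjusted p = 0.0469). The other 8 libraries share a sign, so the unadjusted p is then the smallest that 8 can give, and no call is drawn from it. The mean was -4.62 without epidermal C (exact permutation, adjusted p = 0.172), -1.91 in the 5 libraries with at least 20 members (0.375) and -0.485 with 8 or more inserted bases (0.922). It was -8.51 without off-reference ends (exact permutation, adjusted p = 0.183) and -4.36 with the largest member of each library left out. The smallest p that 5 libraries can give is 0.0625, so that subset could not pass 0.05.

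The inserted bases were rich in G and C. The GC share over members was 60.7% in lymph node, 58.5% in WT dermis, 54.9% in the CD103+ sort and 61.0% in the CD103hi sort. It was 51.5 and 75.0% in dermal A and B, the latter from 12 bases in 2 clonotypes, and 57.4, 63.2 and 57.1% in epidermal A, B and C. The epidermal mean of 59.3% ± 3.43 (SD, n = 3) and the dermal mean of 63.2% ± 16.6 (SD, n = 2) had overlapping values (exact permutation p = 0.8). In clonotypes with 1 to 5 inserted bases the GC share was lower in 7 of 9 libraries, 53.8% in lymph node and 55.7% in WT dermis. The mean difference was 6.18 percentage points ± 7.59 (SD, n = 9, exact sign-flip permutation p = 0.0234, adjusted 0.0859). With inserted bases recounted from reference segments, the mean difference was -3.58. With clonotypes without a D call kept it was 0.116 (exact permutation, adjusted p = 0.957), and without off-reference ends, which put dermal A at 47.4% and epidermal A at 63.6%, it was 6.03 (0.152).

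The 2 sides had mirrored composition in the large libraries. In lymph node, C made up 43.0% of V-D bases and 13.4% of D-J bases, while G made up 20.9 and 44.5%. WT dermis had 43.8 and 11.0% C, and 17.9 and 45.2% G. A rose from 17.3% on the V-D side to 25.6% on the D-J side in lymph node, and T was 18.8 and 16.4%. In dermal A the G shares were 27.6 and 28.1%, in epidermal A 28.2 and 29.4%, and in the CD103+ sort 35.3 and 27.3%. With all members, these 3 libraries thus did not show the lymph node pattern for G. Without off-reference ends, V-D minus D-J G was 1.42 percentage points in dermal A (8 members) and 11.9 in the CD103+ sort (17 members). In epidermal A it was then -25, from 3 members, against -23.6 in lymph node. Over the 9 libraries, G was lower on the V-D side in 8 (mean difference -16.0 percentage points ± 17.9, SD, exact sign-flip permutation p = 0.0352, adjusted 0.0859). Without the CD103+ library, the only one of opposite sign, it was -19.0 (exact permutation, adjusted p = 0.0469). The other 8 libraries share a sign, so the unadjusted p is then the smallest that 8 can give, and no call is drawn from it. The mean difference was -11.7 without epidermal C (exact permutation, adjusted p = 0.172), -8.93 in the 5 libraries with at least 20 members (0.375) and -19.5 without off-reference ends (0.141). With the largest member of each library left out it was -5.19. By the recount from reference segments the mean difference was -2.15, with -12.3 in lymph node and only -2.07 in WT dermis. The smallest p that 5 libraries can give is 0.0625, so that subset could not pass 0.05.

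**Figure D4:**
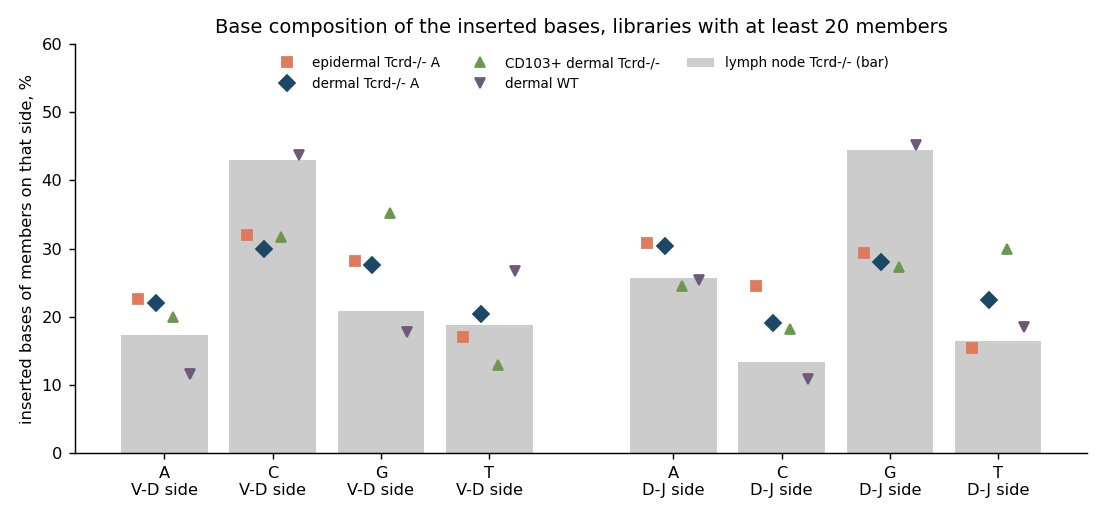
Percent of A, C, G and T among inserted bases on the V-D side and on the D-J side of members, for the 5 libraries with at least 20 members (lymph node as bars, 4 skin libraries as points). C reached 43.0% on the V-D side and G 44.5% on the D-J side in lymph node, and the WT dermal points lie close to both bars.

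Longer inserts did not change this composition much in lymph node. The GC share was 59.0% at exactly 6 inserted bases, 62.3% at 7 to 9 and 59.7% at 10 or more. The G share of the D-J side was 43.1, 45.6 and 44.4% in these classes, against 32.2% at 1 to 5. Neighbouring inserted bases on 1 side were the same letter in 40.5% of 7523 pairs in lymph node members, against 30.2% expected from the composition of each side. This was not particular to members, since clonotypes with 1 to 5 inserted bases had 39.3 against 26.9%. Members with 10 or more had 35.1 against 29.7%. Bases within 1 insert are not independent.

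Member CDR3s were longer than others, but by fewer bases than were inserted. In lymph node the mean CDR3 was 14.8 amino acids ± 1.34 (SD over clonotypes, n = 1452) against 14.1 ± 1.28 for the others. Members held 5.01 more inserted bases and only 2.20 more CDR3 bases, since the germline parts were shorter. Members kept 12.8 V bases, 7.85 D bases and 16.7 J bases on average, against 13.8, 8.09 and 18.2 in the others. WT dermal members held 5.24 more inserted bases and 2.41 more in all, with 13.3 against 13.8 V, 7.42 against 8.56 D and 16.9 against 18.1 J bases. The CDR3 length follows in part from the rule, so no test was made of members against others.

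Mean member length was 15.9 amino acids in the CD103+ sort, 15.6 in the CD103hi sort and 14.9 in WT dermis. It was 15.2 and 14.5 in dermal A and B, and 14.3, 15.7 and 14 in epidermal A, B and C. Epidermis (14.7 ± 0.887, SD, n = 3) and dermis (14.9 ± 0.517, SD, n = 2) overlapped (exact permutation p = 0.8). By the recount from reference segments they did not overlap, at 13.9 ± 0.197 (SD, n = 3) and 14.9 ± 0.167 (SD, n = 2), a difference of -0.993 amino acids (exact permutation p = 0.2, adjusted 0.35). In epidermal A and dermal A the means were 15.3 and 16.3 without off-reference ends.

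D segment calls of members were mixed. TRBD2 was called in 38.2% of lymph node members and 41.5% of the others, and in 44.4 and 49.3% in WT dermis. Over 9 libraries the mean difference was -8.66 percentage points ± 19.6 (SD, exact sign-flip permutation p = 0.246, adjusted 0.295), and it was 3.19 without off-reference ends. TRBD2 lies downstream of the TRBJ1 cluster, so a TRBD2 to TRBJ1 joint is not a usual deletional product. Such calls made up 23 of 400 TRBJ1 members in lymph node (5.75%) and 8.19% of other TRBJ1 clonotypes in the same library.

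The J segments of members came mainly from the TRBJ2 cluster, with wide differences between libraries. TRBJ2 took 72.5% of lymph node members against 73.6% of others, 69.4 against 75.4% in WT dermis, and 72.7 against 73.9% in the CD103+ sort. Dermal A had 57.7 against 81.0%, epidermal A 73.1 against 77.8% and epidermal B 66.7 against 87.9%, while all 5 CD103hi members used TRBJ2, against 68.7% of its others. The share of members was lower in all 5 libraries with at least 20 members (mean -7.27, exact permutation, adjusted p = 0.188). Without off-reference ends dermal A turned to 8 of 8 and the CD103+ sort to 82.4 against 73.8% of its others. Epidermal A, WT dermis and lymph node stayed lower. The mean difference over 9 libraries was then 9.34 (exact permutation, adjusted p = 0.183). With off-reference ends kept, the mean difference over 9 libraries was 2.49 percentage points ± 19.9 (SD, exact sign-flip permutation p = 0.742). The epidermal mean was 79.9% ± 17.7 (SD, n = 3) and the dermal mean 78.8% ± 29.9 (SD, n = 2), with an exact permutation p = 1. TRBJ2-7 had the highest mean share of members over the libraries (27.8%, against 21.4% of others), followed by TRBJ2-4 (16.2 against 10.4%) and TRBJ2-1 (14.4 against 14.5%). Epidermal C, with its 1 member, and dermal B, with 2, raise such means. In lymph node the values were 19.6 against 19.2% for TRBJ2-7, 9.02 against 9.33% for TRBJ2-4 and 14.5 against 14.4% for TRBJ2-1. TRBJ2-5 and TRBJ2-3 had the largest lower means, at 8.28 against 12.3% and 8.06 against 11.0%, and lay at 14.5 against 14.9% and 9.5 against 10.1% in lymph node.

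No V or J segment passed the test of members against other clonotypes of the same library. Of 34 segments (23 TRBV and 11 TRBJ), 0 (0%) had an adjusted p under 0.05 by the exact sign-flip permutation over 9 libraries, and 4, all TRBV, had an unadjusted p under 0.05. The lowest adjusted p was 0.0885. With 9 libraries the smallest p that the exact sign-flip permutation can give is 0.00391. After adjustment over 34 segments, no segment could therefore pass on its own. The 0 calls thus do not show equal usage. In libraries with few members most segments are at 0%, so differences lean to the lower side and an unadjusted p is not read as a call.

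TRBV13-2, a segment common in the mouse repertoire, was lower among members in 8 of 9 libraries, with a mean of 4.43 against 14.2% (adjusted p = 0.0885, exact permutation). It took 7.09% of members and 10.4% of others in lymph node, 5.56 against 13.2% in WT dermis, 4.55 against 17.6% in the CD103+ sort and 7.69 against 21.1% in dermal A. In dermal A this turned to 25% (2 of 8) without off-reference ends. TRBV31, the inverted segment downstream of the J clusters (chromosome 6, 41557691 to 41558452, minus strand), averaged 1.002 against 3.73% and was lower in 8 libraries and higher in 0 (adjusted p = 0.0885, exact permutation). Its lymph node values were 4.48 and 5.40%. TRBV16 averaged 3.48 against 6.99%, but took 7.99 against 7.84% in lymph node.

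The V segments with the highest mean share of members were TRBV13-3 (18.5%, against 14.8% of others), TRBV13-1 (14.3 against 7.37%), TRBV1 (9.03 against 5.93%), TRBV5 (8.88 against 6.86%) and TRBV3 (8.02 against 5.88%). In lymph node TRBV13-3 took 13.02 against 12.4% and TRBV13-1 10.1 against 9.75%. In WT dermis 8 of 36 members used TRBV13-3 and 6 used TRBV1. In the CD103+ sort 5 of 22 used TRBV5 and 4 used TRBV1. In dermal A 6 of 26 used TRBV13-3, and 5 of 8 did without off-reference ends.

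TRBV30 had the third largest higher mean (4.26 against 0.647%), and this rested on off-reference ends. It was called in 4 members each of epidermal A and dermal A and in 1 of the CD103+ sort, all 9 with an off-reference J end. In WT dermis it was called in 1 member and in lymph node in 3 of 1452 (0.207%). Among the segments named, lymph node usage of members lay close to that of other clonotypes, with TRBV13-2 the widest gap. Segments not named differed there in both directions. Examples are TRBV14 (5.51 against 3.47%), TRBJ1-1 (11.4 against 9.65%) and TRBJ1-2 (3.93 against 5.23%).

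**Figure D5:**
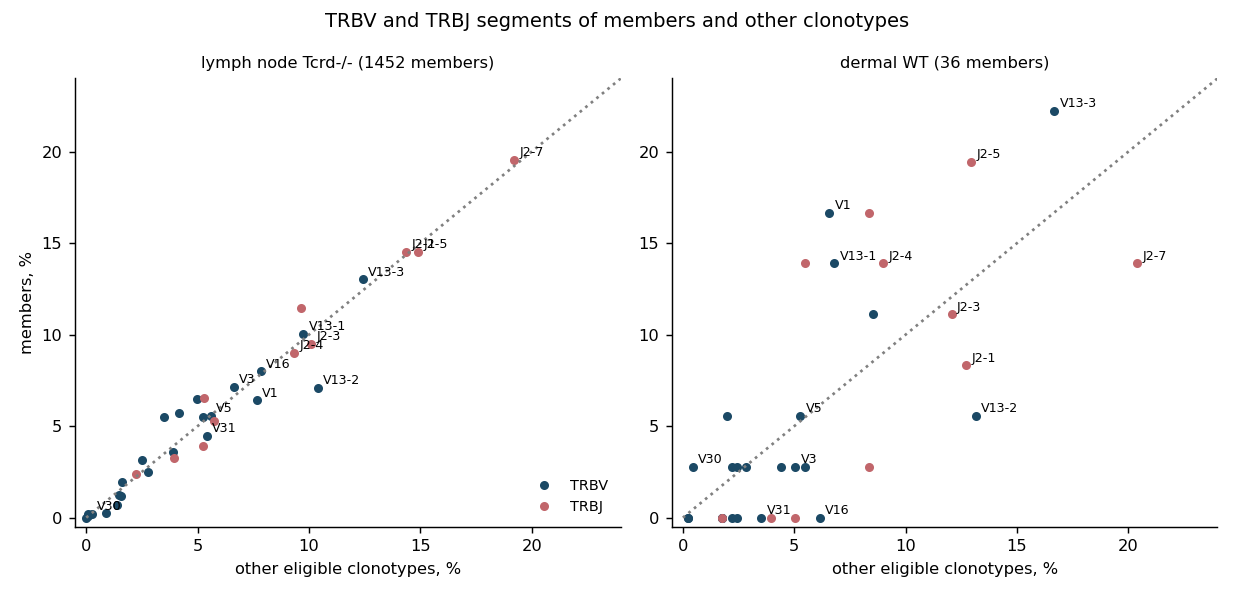
Percent of members against percent of other eligible clonotypes for each TRBV and TRBJ segment in lymph node (left) and WT dermis (right). The dotted line marks equal shares. Lymph node points lie near the line with TRBV13-2 below it (7.09 against 10.4%), and the 36 WT dermal members scatter widely.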

How the data were processed

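Receptor transcripts of sorted cells were copied by 5′ RACE, amplified by PCR and sequenced on an Illumina MiSeq, per the labels' protocols. The sources used here do not give the aligner, clonotype caller, error correction or segment reference, and the labels name no molecular identifiers. The authors deposited a read count per clonotype and the fraction of library reads, which equals count divided by total. The deposited positions of segment ends (unit score) were taken as given, per the file headers, and count from the first CDR3 base. Libraries held 31823 to 189162 reads in 72 to 26693 clonotypes. A count of 0 allowed up to 0.00159 to 0.00943% of reads (3 counts). PCR reads are not independent molecules, so intervals and limits cover counting error only.

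The members and lists were chosen with earlier results of these data known. Clonotypes without a D call (23.0 to 43.4% of a library) were not eligible. In 1737 of 1879 eligible clonotypes (92.4%) whose V call ran past the reference V end, the extra bases were the palindrome of that end, so the deposited positions leave such bases out of the inserted count. D calls matched the reference D exactly in 68.0%. A recount from GENCODE M21 segments took the longest V prefix, J suffix and D match of at least 3 bases, counted palindromic bases and mismatches as inserted, and gave 5497 members.

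Tests used Python 3.11.15, numpy, pandas and scipy. Epidermal (n = 3) and dermal (n = 2) Tcrd-/- libraries were compared by exact two-sided permutation of the difference of means, adjusted (Benjamini-Hochberg) over 7 measures, where the smallest p is 0.2. Members were compared with other clonotypes of the same library by exact two-sided sign-flip permutation over 9 libraries, adjusted over 6 measures, or over all segments with at least 10 eligible clonotypes. The labels do not say whether pools shared animals, and a p-value here reflects the spread over these libraries, which may be technical. The tests were checked on simulated data. Clonotypes were named by a fixed rule: the largest member of each library, the longest inserts in skin (at least 10 reads) and lymph node (at least 2), the 3 members in most libraries, and the largest skin clonotypes with 6 and 5 inserted bases. Segments were named by mean share (5 TRBV, 3 TRBJ) and by largest difference (3 TRBV and 2 TRBJ in each direction). Alternatives were other thresholds, a minimum of 2 reads, clonotypes without D kept, no trace clonotypes (under 1% of the share in another library of the same set), the recount, leaving out libraries, both CD103 sorts added, blocks and read weighting. Those added after seeing the data were the J end filter, leaving out the largest member of each library, and leaving out clonotypes 1 base from one with 20 times the reads.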

Additional observations from a re-analysis of the deposited data

How the results depend on the processing

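The members' read share and clone size ratio were lower in epidermis than in dermis under all 18 alternatives of each, and 0 segments were called under all 22 alternatives of that test. In the 5 libraries with at least 20 members the smallest p is 0.0625, so no segment could be called there. With more libraries no segment could pass alone, so the 0 calls do not show equal usage. Small numbers of members limit the other results: epidermal C had 1 member, dermal B 2 and CD103hi 5, so shares of their members move with single clonotypes. The adjusted p of the epidermal and dermal comparisons cannot pass 0.05 at this size, so a kept side of the threshold says nothing there. For the reversals below, the cause was not tested.

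Differences are epidermal minus dermal, in percentage points unless said otherwise. The V-D share (main value -0.262) was 4.99 with 5 or more inserted bases, 24.02 with 8 or more, 7.23 with 2 reads or more, 13.8 without trace clonotypes, 3.28 by reads, 0.521 with both CD103 sorts added, 7.85 without the largest members, 0.748 with the J end filter, no traces and no 1-base neighbours together, -11.5 with the J end filter and -8.91 by the recount. The TRBJ2 share (1.07) was -12.0 with 5 or more, -28.3 with 2 reads or more, -11.1 without traces, -2.56 by the recount, -16.7 with the J end filter, -4.50 without the largest members, -26.7 with the 3 filters together, -21.6 by reads and -2.69 with both CD103 sorts. The GC share (-3.98) was 7.56 with 8 or more, 8.05 without the largest members and 0.867 with the 3 filters together. Mean length (-0.207 amino acids) was 0.0920 with 5 or more and 0.0917 with the 3 filters together, and -0.993 by the recount. Leaving out each library gave a range of -8.74 to 2.65 for the clonotype share, positive without dermal A, -13.2 to -11.0 for the read share, -15.7 to 7.78 for GC, -7.50 to 13.3 for the V-D share, -0.712 to 0.158 amino acids for length, -20.1 to 22.2 for TRBJ2, and -9.48 to -6.96 (log2) for the clone size ratio.

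With the replicate letters A and B as a block (the paired differences of 2 letters), the V-D share was 13.3, length 0.122 amino acids and TRBJ2 -8.97, the clonotype share -0.879, the read share -12.0, GC -2.92 and the clone size ratio -7.29. The letters name no shared animal, and 2 pairs do not test a pairing. With the library set as a block the read share was -12.0.

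Within libraries, members minus others, the TRBJ2 share (2.49) was -0.774 with 5 or more, -6.31 with 8 or more, -1.24 with clonotypes without D kept, -0.892 without traces, -0.337 by the recount and -7.27 in libraries with at least 20 members. The TRBD2 share (-8.66) was -15.2 with 5 or more (exact permutation, adjusted p = 0.0234), 0.981 by the recount, 3.19 with the J end filter, 0.244 without the largest members and 6.92 with the 3 filters together. GC (6.18) was 8.15 with 5 or more (exact permutation, adjusted p = 0.0234), 0.116 with clonotypes without D kept and -3.58 by the recount. The V-D share was -9.43 and G by side -18.0 with 5 or more (exact permutation, adjusted p = 0.0234 each), and clone size was -2.52 by the recount and -3.75 without the largest members (exact permutation, adjusted p = 0.0469), but -0.930 with 2 reads or more. Leaving out each library gave a range of -1.11 to 5.71 for TRBJ2, -11.5 to -4.50 for TRBD2, 4.01 to 7.27 for GC, -10.3 to -4.62 for the V-D share, -19.0 to -11.7 for G by side and -3.33 to -1.91 (log2) for clone size.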
